A study of Homo sapiens with 12 samples.

Results

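FSCN1, GMFB, ADD3 and SWAP70 encode proteins that shape the actin cytoskeleton, and their transcripts gave a lower signal on arrays of MDA-MB-231 cells with a miR-145-5p mimic than on arrays of control cells. They were described here beside 6 genes of the same or related families, GMFG, ADD1, ADD2, CFL1, CFL2 and DSTN. The first 4 genes were chosen by that lower mean signal in mimic145 than in cntrl, so their values in that comparison are given as a description, with no test. The other 6 joined them by family. Members were found by the transcript accession of each probe, which gave 103 of 233164 probes and 10 of 20708 genes. A probe was kept if the scanner software called its spots well above background throughout 1 or more groups, and 85 of the 103 probes and all 10 genes passed. In the series as a whole 142929 of the probes with a gene and 18253 genes passed. Whether the mimic acts on these transcripts directly was not measured by the arrays.

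MDA-MB-231 is an established cell line of triple-negative breast cancer. It was profiled in 4 groups of 3 arrays, which the submitters call a biological triplicate. The cntrl cells carried control oligonucleotides for the mimic and for the siRNA, the mimic145 cells the miR-145-5p mimic, the sirnaAGO2 cells a Dicer-substrate siRNA against AGO2, and the sirnaAGO2+mimic145 cells both. Oligonucleotides for overexpression were used at 5 nM and those for silencing at 500 pM for 72 h. Whether mimic145 and sirnaAGO2 cells also received the control oligonucleotide of the other kind is not stated in the labels. The comparison asked whether the transcripts that are lower with the mimic are still lower when Ago2, a member of the Argonaute family whose proteins can all carry microRNAs, is silenced.

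All values are normalized log2 signals of single-color exon arrays, and the signal of a gene is the mean over its kept probes. Signals of different genes come from different probes and were not compared with each other. AGO2 itself was 0.71 lower on the log2 scale in sirnaAGO2 than in cntrl (standard error 0.08, limma adjusted p = 0.00491), which left 61.0% of its signal. The share of spots well above background ran from 60.5% to 77.3% per array, no spot was saturated, and a log2 difference had a standard error of 0.0990 for the median gene. Each slide held a pair of arrays of 1 arm, with the mimic array always at the second position, so slide and silencing, and position and mimic, cannot be told apart. Of the markers of this line, VIM had 8 of 9 probes, CD44 17 of 18, CAV1 3 of 3 and AXL 19 of 19 above background on each of the 12 arrays. Of the genes expected to be absent, PGR had 0 of 9, ESR1 3 of 14, CDH1 4 of 16 and, against expectation, GATA3 6 of 6. For the leukocyte and endothelial markers PTPRC, CD3E, PECAM1 and CDH5 the counts were 3 of 33, 2 of 7, 0 of 2 and 2 of 13.

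A microRNA guides an Argonaute protein to transcripts that pair with its seed, the bases 2 to 8 from the 5′ end, and the bound transcript is then less stable or less translated. Actin filaments are bundled, capped, severed and branched by the proteins studied here, and in carcinoma cells they drive protrusion and migration. Fascin, the product of FSCN1, is known as a filament bundler of invasive breast cancer cells and as a target of miR-145-5p in several tumors. The mature sequence that the mimic stands for is shown with its seed in capitals, since every mimic comparison rests on it.
hsa-miR-145-5p: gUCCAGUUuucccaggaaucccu
RefSeq places these 23 bases on the plus strand at chr5:149430661-149430683 of GRCh38.p14. A transcript that pairs with all of the seed holds the letters AACTGGA. The 3′ UTRs of the members were not analysed here.

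**Figure D1:**
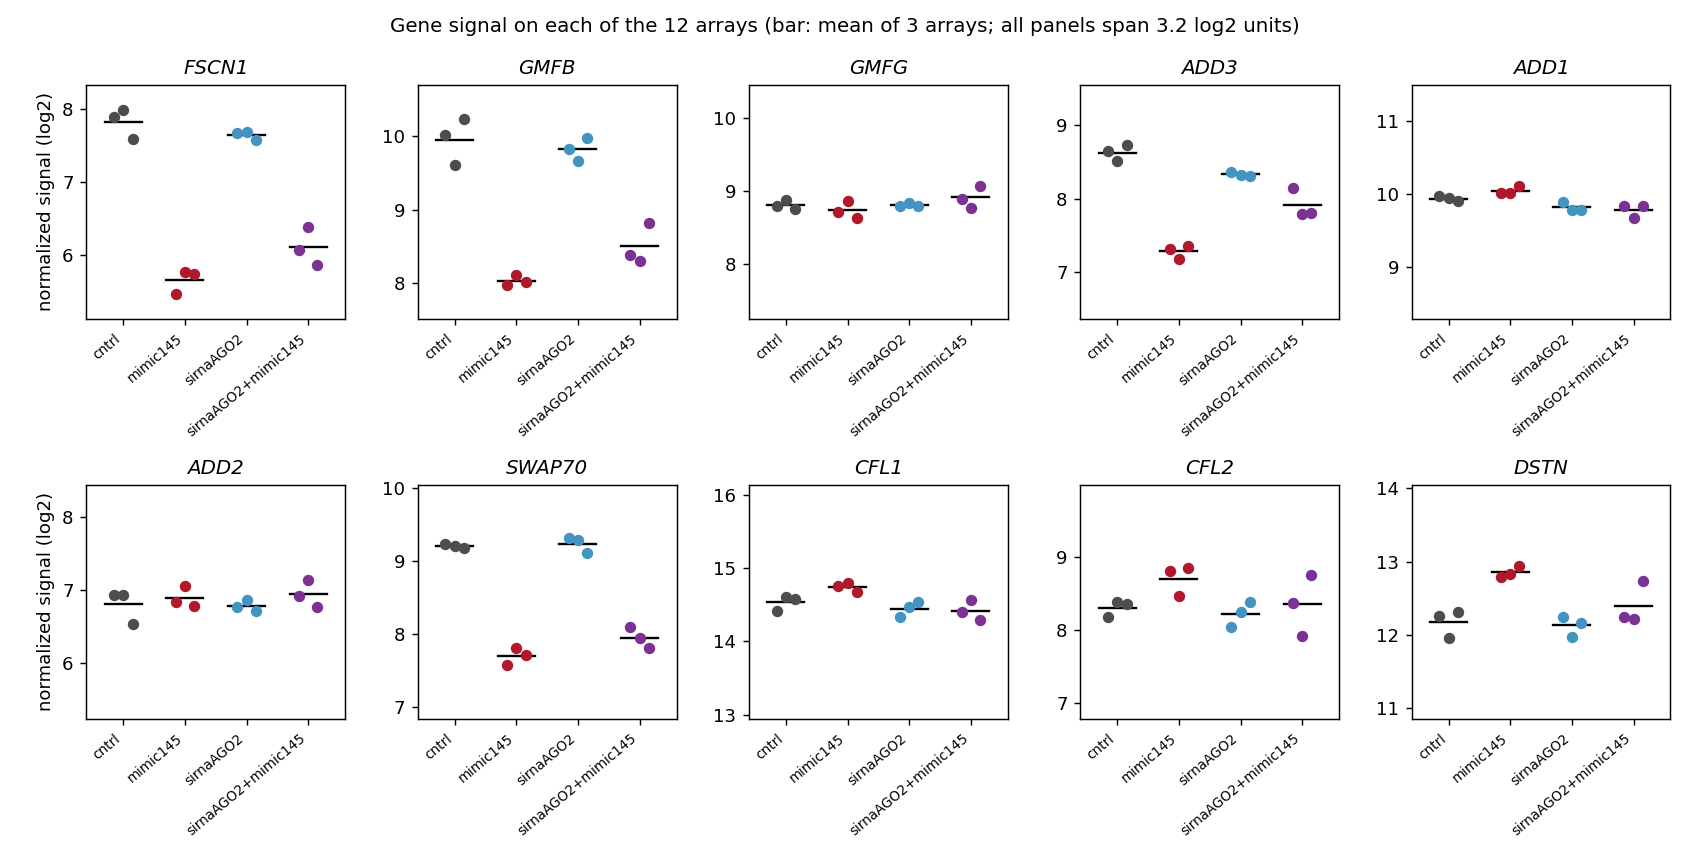
Normalized log2 signal of the 10 genes on each of the 12 arrays, by group, with bars at the group means; every panel has an axis of the same length. In FSCN1, GMFB, ADD3 and SWAP70 all arrays with the mimic lie below the arrays of the same arm without it, whereas the groups of GMFG and ADD2 overlap.

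FSCN1 lies at chr7:5592816-5606655 (GRCh38.p14) and encodes fascin, which packs filaments into the tight bundles of filopodia and invadopodia. Its log2 signal was 7.89, 7.98 and 7.58 in replicates 1, 2 and 3 of cntrl and 5.46, 5.76 and 5.74 in mimic145. It was 7.67, 7.67 and 7.57 in sirnaAGO2 and 6.06, 6.39 and 5.86 in sirnaAGO2+mimic145. Every array with the mimic was lower than every array without it, in both arms, and the arrays of cntrl and sirnaAGO2 overlapped. In control cells the log2 difference was -2.16 (pairs -2.42, -2.22 and -1.84). It was -1.25 with the normexp background correction and -1.59 with the median over probes. In Ago2-silenced cells FSCN1 fell by 1.53 (standard error 0.12, 95% confidence interval -1.80 to -1.27, limma adjusted p = 0.00118, lower in 3 of 3 pairs), and by 0.93 with normexp. Of its 7 probes, 4 did not have every spot above background on any sirnaAGO2+mimic145 array. These 4 passed the filter only through the groups without the mimic, where they are high. The size of this fall, its interval and its p-value thus rest partly on dim signals, and nothing further is read from them. With only probes above background on every array, no FSCN1 probe was left to test.

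The size of this difference varied between the 7 probes of FSCN1, all of 1 transcript, NM_003088. In control cells all 7 were lower, with differences from -5.02 to -0.64, and in silenced cells 6 of 7 were lower, with differences from -3.30 to 0.05. In a test of each probe in silenced cells, 0.774% of all kept probes were called lower, 0.9% higher and 1.67% in either direction. Of FSCN1, 4 probes passed, but 3 of these did not have every spot above background on any sirnaAGO2+mimic145 array and were kept through groups where they are high, so nothing is read from that count. No FSCN1 probe was well above background on every array, and all 7 were kept through the arrays without the mimic. With the mimic, probe A_37_P157858 was never well above background. Its mean log2 signal was 6.91 in cntrl and 3.96 in mimic145, and 6.92 in sirnaAGO2 and 4.53 in sirnaAGO2+mimic145. Probe A_37_P157856 had 6.52 in sirnaAGO2 and 4.94 in sirnaAGO2+mimic145. Folds were also taken with the dim probe set no lower than the lowest signal well above background on its array. Probe A_37_P157858 was then 2.49-fold lower in control cells and 2.29-fold lower in silenced cells. Probe A_37_P157856 was then 1.74-fold lower in silenced cells. A spot can be brighter than that lowest signal and still not be well above background, so these folds are not strict lower bounds. Probe A_37_P157859 went from 8.81, 8.72 and 8.13 in cntrl to 4.73, 5.15 and 5.24 in mimic145, and from 8.55, 8.61 and 8.32 in sirnaAGO2 to 5.95, 5.50 and 5.36 with the mimic on top. It was lower on every array with the mimic than on any without.

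**Figure D2:**
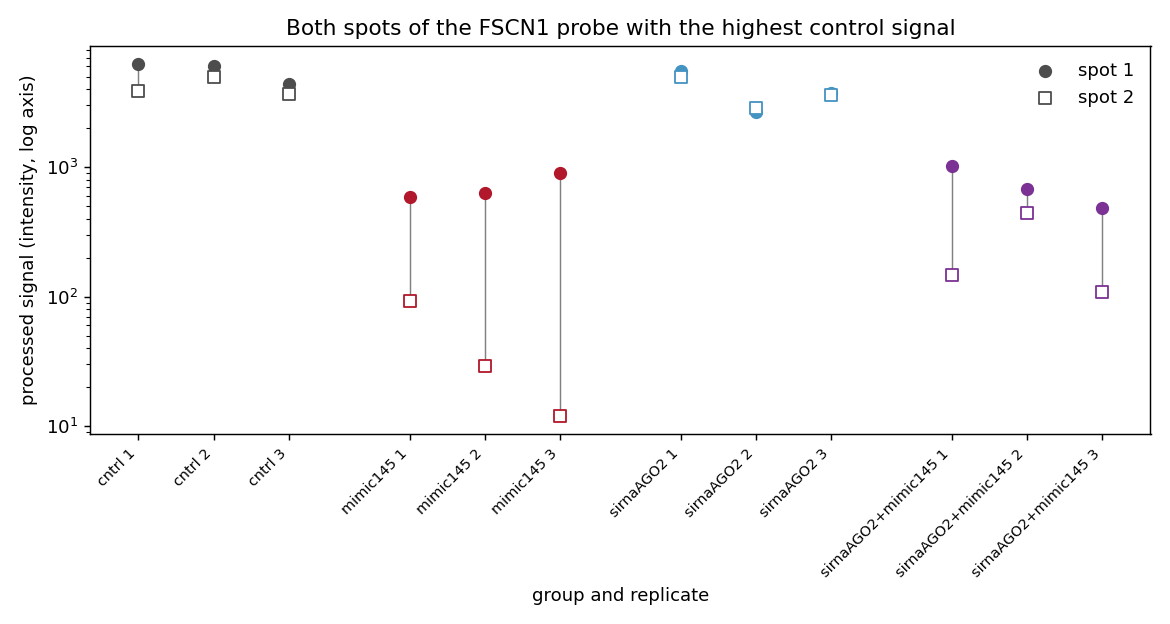
Processed signal (intensity, log axis) of both spots of FSCN1 probe A_33_P3411075 on each array, by group and replicate; a line joins the spots of an array. The log2 gap is 2.62 to 6.28 on mimic145 arrays and at most 0.69 on arrays without the mimic, while 1 sirnaAGO2+mimic145 array, replicate 2, has a gap of 0.64; spot 2 is the lower on all 6 arrays with the mimic.

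The FSCN1 probe with the largest difference, A_33_P3411075, was printed as 2 spots, whose values were farthest apart on mimic145 arrays. On cntrl arrays the processed signal of spot 1 was 6301, 6028 and 4345, and that of spot 2 was 3895, 5001 and 3692. On mimic145 arrays spot 1 gave 590, 633 and 893, and spot 2 gave 92.5, 29.1 and 11.9 and was not well above background. On sirnaAGO2+mimic145 arrays spot 1 gave 1023, 675 and 484, and spot 2 gave 148, 439 and 108. The log2 values of the spots thus differed by 0.25 to 0.69 on cntrl, 0.04 to 0.17 on sirnaAGO2, 2.62 to 6.28 on mimic145 and 0.64 to 2.67 on sirnaAGO2+mimic145 arrays. Spot 1 was 7.99-fold lower with the mimic in control cells and 5.24-fold lower in silenced cells. Spot 2, set no lower than the lowest signal well above background, was 72.8-fold lower in control cells. In silenced cells spot 2 was 18.6-fold lower. Of 119854 kept probes with 2 spots, 50 (0.0417%) had spots that differed by over 2 on all 3 mimic145 arrays. What set the spots apart was not tested. Without this probe, FSCN1 was -1.68 in control cells and fell by 1.24 in silenced cells (limma adjusted p = 0.00492), a comparison added after the spots were seen.

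GMFB and GMFG encode the glia maturation factors, small proteins of the ADF family that remove branches made by the Arp2/3 complex. GMFB (chr14:54474485-54488980) had a log2 signal of 10.01, 9.61 and 10.24 in cntrl and of 7.97, 8.10 and 8.01 in mimic145. It was 9.83, 9.67 and 9.98 in sirnaAGO2 and 8.38, 8.29 and 8.82 in sirnaAGO2+mimic145. The arrays with the mimic were lower than those without it in both arms. The difference in control cells was -1.93 (pairs -2.05, -1.51 and -2.23), and in Ago2-silenced cells GMFB fell by 1.33 (standard error 0.13, interval -1.62 to -1.04, limma adjusted p = 0.00226, 3 of 3 pairs), to 39.8% of its signal. All 7 probes were lower in both arms, with differences from -2.38 to -1.77 in control cells and from -2.25 to -0.98 in silenced cells, where 6 of 7 passed. The seventh, A_37_P455503, spread widely with the mimic in silenced cells, at 5.38, 7.45 and 8.87. Of all kept probes, 0.774% were called lower in silenced cells. Of the 7 GMFB probes, 5 were well above background on every array. Probes of the same gene are not replicates, and nothing is read from this count.

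GMFG (chr19:39328359-39336043), the paralog known mainly from blood cells, was not called in either arm. Its log2 signal was 8.80, 8.88 and 8.76 in cntrl, 8.72, 8.87 and 8.63 in mimic145, 8.80, 8.84 and 8.80 in sirnaAGO2 and 8.89, 8.78 and 9.07 in sirnaAGO2+mimic145, and all groups overlapped. The difference was -0.08 in control cells (interval -0.29 to 0.14, limma adjusted p = 0.608) and 0.10 in silenced cells (interval -0.11 to 0.32, limma adjusted p = 0.497). Of its 7 probes 4 were kept, with mean log2 signals of 15.21, 7.13, 6.92 and 5.99 in cntrl, so its signal averages a bright probe with much dimmer ones. The differences of these probes ran from -0.44 to 0.16 in control cells and from -0.25 to 0.26 in silenced cells. With another scaling (75th percentile) or with all 7 probes, the difference of the gene in control cells turned to 0.01 and 0.05.

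The adducins cap the fast-growing end of filaments and tie them to spectrin under the membrane. ADD3, gamma-adducin (chr10:109996373-110135565), had a log2 signal of 8.64, 8.51 and 8.73 in cntrl and of 7.31, 7.17 and 7.35 in mimic145. It was 8.36, 8.32 and 8.32 in sirnaAGO2 and 8.14, 7.79 and 7.80 in sirnaAGO2+mimic145. The arrays with the mimic were lower in both arms, but by less in silenced cells, and the sirnaAGO2 arrays were themselves below the cntrl arrays. The difference in control cells was -1.35 (pairs -1.33, -1.33 and -1.38), to 39.3% of the signal. In silenced cells ADD3 fell by 0.42 (standard error 0.09, interval -0.62 to -0.22, limma adjusted p = 0.0321, 3 of 3 pairs), to 74.8%, which was place 779 among the falls. All 13 kept probes of ADD3 were lower in both arms. Their differences ran from -2.18 to -0.66 in control cells and from -0.71 to -0.11 in silenced cells. In silenced cells 1 passed, where 0.774% of all kept probes were called lower. The 2 kept probes of transcript NM_016824 had a mean of -1.76 in control cells and -0.44 in silenced cells, and the 11 of NM_001121 had -1.27 and -0.42. The probe that passed, A_37_P191850 of NM_016824, was also the one with the largest difference in control cells, -2.18.

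ADD1, alpha-adducin (chr4:2843844-2930062), which is made in most cells, had a log2 signal of 9.98, 9.94 and 9.90 in cntrl and 10.02, 10.02 and 10.11 in mimic145, so that its arrays with the mimic lay above, by 0.11 on average (limma adjusted p = 0.283). In silenced cells the groups overlapped, with 9.89, 9.78 and 9.79 without and 9.84, 9.68 and 9.84 with the mimic (difference -0.03, interval -0.19 to 0.12, limma adjusted p = 0.769). ADD2, beta-adducin (chr2:70656784-70768200), best known from red cells and brain, ranged from 6.54 to 7.14 over the 12 arrays and overlapped between all groups. Its difference was 0.09 in control cells (limma adjusted p = 0.476) and 0.16 in silenced cells (limma adjusted p = 0.237), from 10 of 21 probes. The upper end of its interval in silenced cells was 0.34, so a small rise could be missed. When probes had to be above background on every array, ADD2 kept 3 probes, and CFL2 also 3, and their rises of 0.44 and 0.41 in silenced cells passed (limma adjusted p = 0.0178 and 0.0392).

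SWAP70 (chr11:9664077-9752993) binds filaments and the lipid PIP3 and is linked to the GTPase Rac in membrane ruffling. Its log2 signal was 9.23, 9.20 and 9.17 in cntrl and 7.57, 7.81 and 7.71 in mimic145. It was 9.31, 9.28 and 9.11 in sirnaAGO2 and 8.09, 7.95 and 7.81 in sirnaAGO2+mimic145. No array with the mimic reached an array without it. The difference in control cells was -1.50 (pairs -1.66, -1.39 and -1.46), and in Ago2-silenced cells SWAP70 fell by 1.28 (standard error 0.09, interval -1.48 to -1.09, limma adjusted p = 0.000768, 3 of 3 pairs), to 41.1%. Its 11 kept probes were all lower in both arms, and 9 of 11 passed in silenced cells, where 0.774% of all kept probes were called lower. Of the 11, 7 were well above background on every array. Probes of the same gene are not replicates, and nothing is read from this count. A twelfth probe, too dim to be kept, had 6.08 in cntrl and 3.70 in mimic145. DEF6, the closest relative of SWAP70, had a difference of -0.38 in control cells (limma adjusted p = 0.0735) and of -0.13 in silenced cells (limma adjusted p = 0.536), and neither passed. With normexp and without replicate 1 DEF6 passed in control cells (limma adjusted p = 0.0353 and 0.0366), and with only probes above background on every array its difference there was 0.03.

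The ADF/cofilin proteins CFL1, CFL2 and DSTN sever and depolymerize filaments. DSTN, destrin (chr20:17570075-17609919), was the member called higher. Its log2 signal was 12.26, 11.96 and 12.31 in cntrl and 12.78, 12.83 and 12.95 in mimic145, with all mimic145 arrays above all cntrl arrays. The rise was 0.67 (standard error 0.11, interval 0.43 to 0.92, limma adjusted p = 0.00277, 3 of 3 pairs), and all 6 probes were higher, by 0.21 to 0.87. In silenced cells DSTN was 12.24, 11.98 and 12.17 without and 12.24, 12.22 and 12.73 with the mimic. These groups overlapped, and the difference of 0.27 did not pass (interval 0.02 to 0.52, limma adjusted p = 0.144). Of its 6 probes, 1 was called higher there, where 0.9% of all kept probes were. The difference between the arms was -0.40 for DSTN (interval -0.75 to -0.06), which did not pass over all genes (limma adjusted p = 0.245). Without replicate 2 the rise in control cells had an adjusted p = 0.0510 by limma.

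CFL1, cofilin-1 (chr11:65854673-65858180), the cofilin of most cells, had a log2 signal of 14.42, 14.60 and 14.58 in cntrl and 14.75, 14.80 and 14.67 in mimic145. Its mimic145 arrays lay above its cntrl arrays, by 0.21 (interval 0.02 to 0.40, limma adjusted p = 0.106). In silenced cells CFL1 was 14.33, 14.47 and 14.54 without and 14.40, 14.56 and 14.29 with the mimic, an overlap with a difference of -0.03 (interval -0.22 to 0.16, limma adjusted p = 0.843). CFL2, the muscle cofilin (chr14:34709113-34714593), was 8.18, 8.38 and 8.36 in cntrl and 8.80, 8.46 and 8.85 in mimic145, again without overlap, with a difference of 0.40 (interval 0.05 to 0.75, limma adjusted p = 0.0984). One of its 5 probes, A_24_P373152, was higher by 1.22 and another lower by 0.24. In silenced cells CFL2 was 8.04, 8.25 and 8.39 without and 8.37, 7.93 and 8.76 with the mimic, a difference of 0.13 (interval -0.23 to 0.48, limma adjusted p = 0.625). CFL2 passed in control cells under 5 of 13 alternatives, among them without replicate 2. The probe sequences were not used here, so signal that the cofilins or their processed copies may share was not checked.

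**Figure D3:**
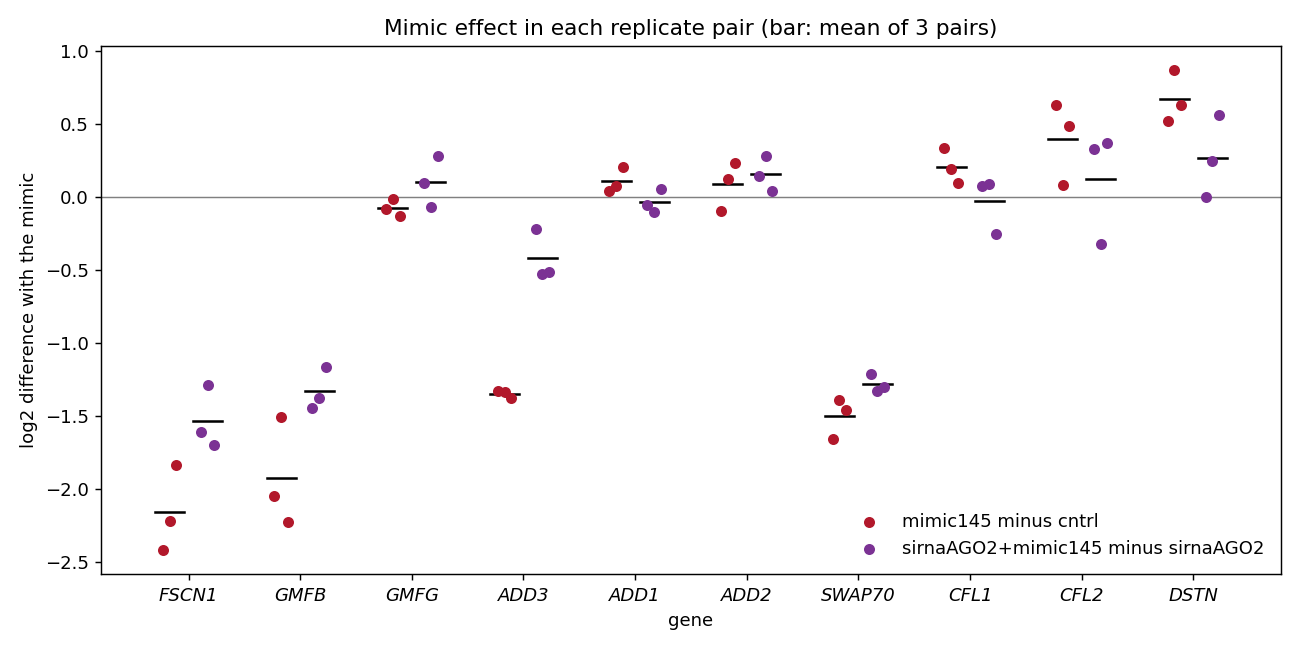
Log2 difference with the mimic in each of 3 replicate pairs for the 10 genes, in control cells (mimic145 minus cntrl) and in Ago2-silenced cells (sirnaAGO2+mimic145 minus sirnaAGO2), with bars at the means. FSCN1, GMFB, ADD3 and SWAP70 lie below 0 in every pair of both arms, and the bar of ADD3 moves most between the arms, from -1.35 to -0.42.

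In Ago2-silenced cells, whose 6 arrays are not in the comparison that chose the genes but whose results were known when the members were listed, 4 of the 10 members were thus called lower and 0 higher, where 3.03% of all genes were called lower, 4.25% higher and 7.28% in either direction. The 4 were FSCN1, GMFB, ADD3 and SWAP70, whose arrays with the mimic were all below those without it, as was so for 10.2% of all genes. These genes had been picked for a fall with the same mimic in control cells. Their counts are therefore not read as an excess over the shares of all genes. The call of FSCN1 rests partly on dim signals, from probes that passed the filter only through groups without the mimic. With 75th percentile scaling, 475 of all genes were called lower and 1919 higher in this arm, against 553 and 775. The 6 members joined by family, here called the paralogs, were called 0 times in this arm by limma. Of them 1 (DSTN) had an unadjusted p under 0.05, and the methods' t-test at p of at most 0.05 also called 0. FSCN2 and FSCN3, paralogs of FSCN1 that are not among the 6, were called higher in this arm (limma adjusted p = 0.0340 and 0.0398). In control cells, 1 of 6 paralogs (DSTN) was called, where 22.6% of all genes were called, 11% lower and 11.6% higher. All 3 mimic145 arrays were above all 3 cntrl arrays for 4 of the 6 paralogs (ADD1, CFL1, CFL2 and DSTN), where this was so for 14.9% of all genes. The calls in silenced cells rested on 3 replicates: without replicate 2 or without replicate 3, limma called 0 of the 4 (adjusted p 0.0677 to 0.270 and 0.0972 to 0.195), all 4 with an unadjusted p under 0.05, and without replicate 1 it called 3, with ADD3 at an adjusted p = 0.0592. With only the 6 arrays of this arm in the fit, the adjusted p was 0.0783 for FSCN1, GMFB and SWAP70 and 0.127 for ADD3, and without the replicate block ADD3 was at an adjusted p = 0.135.

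The difference between the arms is given for the 4 picked genes as values only, because it contains the comparison that picked them. The effect in silenced cells minus that in control cells was 0.63 for FSCN1 (replicates 0.81, 0.94 and 0.13), 0.60 for GMFB (0.60, 0.13 and 1.06), 0.93 for ADD3 (1.11, 0.81 and 0.86) and 0.22 for SWAP70 (0.44, 0.06 and 0.16). Every replicate of every one of the 4 genes was above 0, that is, less low in silenced cells. Nothing is read from this, since picking genes by a large fall in control cells favors values above 0. The 4 genes also come from the same arrays. As a share of the effect in control cells, the effect in silenced cells was 72.4% ± 18.2 (SD, n = 3 replicates) for FSCN1, 71.5% ± 19.5 for GMFB, 86.0% ± 11.4 for SWAP70 and 31.1% ± 12.8 for ADD3. The highest share of ADD3, 39.5%, was below the lowest of the other 3 genes, 52.4% for GMFB in replicate 3. The shares divide by the comparison that picked the genes and were not tested. The share of FSCN1 also rests partly on dim signals. In mimic145, and likewise in sirnaAGO2+mimic145, 4 of its 7 probes did not have every spot above background on any array. For the paralogs the difference between the arms was called in 0 of 6 by limma, where 0.011% of all genes were called, 0.00548% in each direction (1 gene each), and 1, DSTN, had an unadjusted p under 0.05. The methods' t-test at p of at most 0.05 called 1, ADD1.

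**Figure D4:**
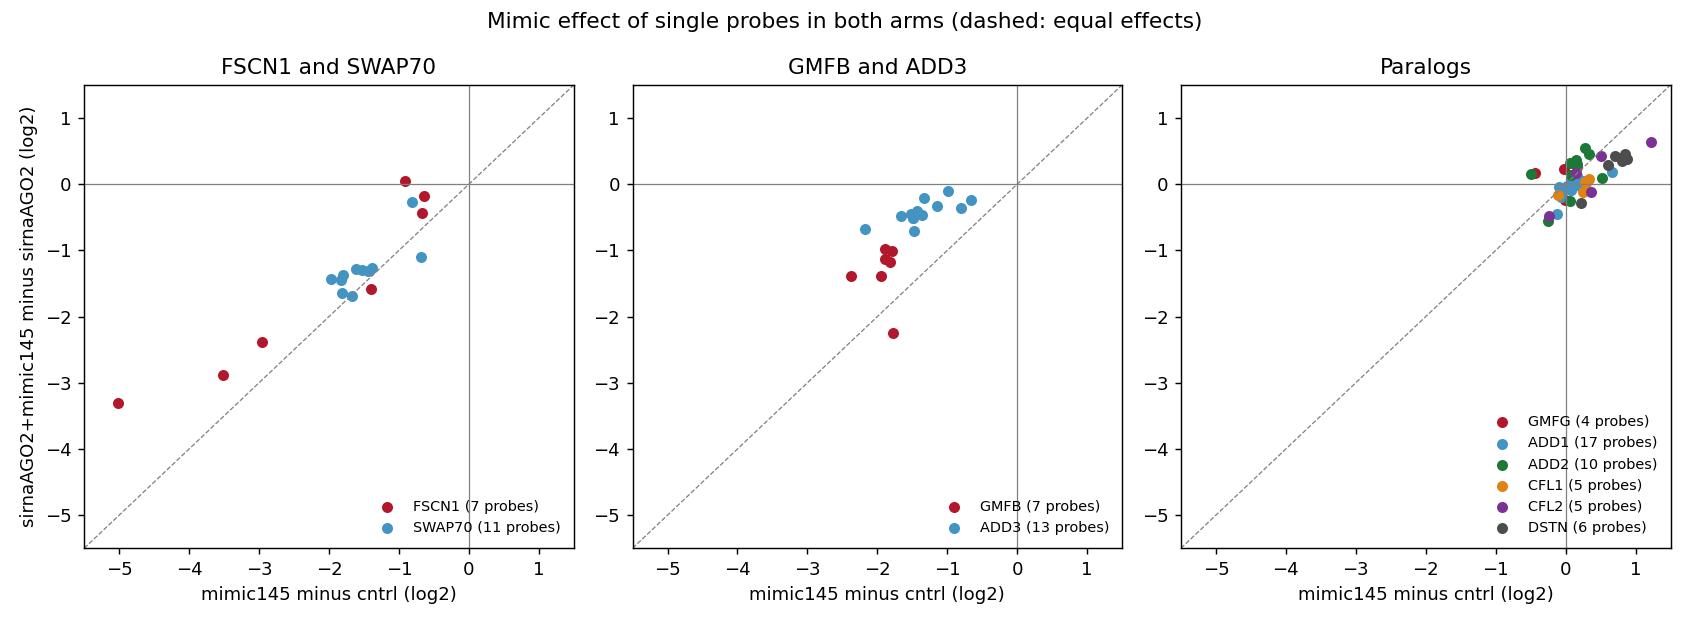
Log2 difference with the mimic for each kept probe, in control cells (horizontal axis) and in Ago2-silenced cells (vertical axis), with a dashed line where both would be equal. The probes of ADD3 lie between -0.71 and -0.11 in silenced cells, those of SWAP70 between -1.69 and -0.27, and those of FSCN1 spread widest, from -3.30 to 0.05; the DSTN probes lie to the right of 0, at 0.21 to 0.87 in control cells.

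The effect of silencing alone was small for most members. ADD3 was 0.30 lower in sirnaAGO2 than in cntrl (pairs -0.29, -0.19 and -0.42), FSCN1 0.18 lower, GMFB 0.13 lower and SWAP70 0.03 higher; these values share the cntrl arrays with the comparison that picked the genes and were not tested. Of the 6 paralogs limma called 0, where 2.58% of all genes were called, 1.69% lower and 0.888% higher, and 0 had an unadjusted p under 0.05. The methods' t-test at p of at most 0.05 called 1, ADD1, whose sirnaAGO2 arrays were all below its cntrl arrays, by 0.12 on average, as was so for 10.6% of all genes, while 8.48% did not overlap in the other direction. AGO2 itself was called higher in mimic145 than in cntrl, by 0.28 (limma adjusted p = 0.0298), and differed by -0.06 between the silenced groups (limma adjusted p = 0.607).

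The other fascins, FSCN2 and FSCN3, were not called lower in either arm. FSCN2, the fascin of retina and inner ear, had 4 of 7 probes kept. In silenced cells its log2 signal was 7.25, 7.32 and 7.27 without and 7.55, 7.88 and 7.55 with the mimic, a rise of 0.38 (limma adjusted p = 0.0340, 3 of 3 pairs) without overlap, as was so for 13.9% of all genes. In control cells the difference was 0.25 (limma adjusted p = 0.0606). FSCN3, the testis fascin, rests on 1 of 7 probes, and rose by 0.65 in silenced cells (limma adjusted p = 0.0398) after a difference of 0.20 in control cells (limma adjusted p = 0.390). Both calls in silenced cells were kept in 5 of 13 alternatives, with adjusted p up to 0.352 for FSCN2 and up to 0.365 for FSCN3, and limma called the difference between the arms for neither gene (adjusted p = 0.590 and 0.328).

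Beyond the members, 125 genes of the actin cytoskeleton were listed by function, of which 124 were measured. In control cells 27 of the 124 fell and 18 rose with the mimic, 36.3% against 22.6% of all genes, with a median log2 difference of -0.06 against 0.01. In silenced cells 6 fell and 3 rose, 7.26% against 7.28% of all genes, with a median of -0.05 against 0.02. All 9 were called in the same direction in control cells. The difference between the arms was called by limma for 0 of the 124, with 28 at an unadjusted p under 0.05, and the methods' t-test called 19 without and 0 with adjustment. It was called for 4 with normexp, for 5 of 123 with only probes above background on every array and for 1 with the authors' table.

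**Figure D5:**
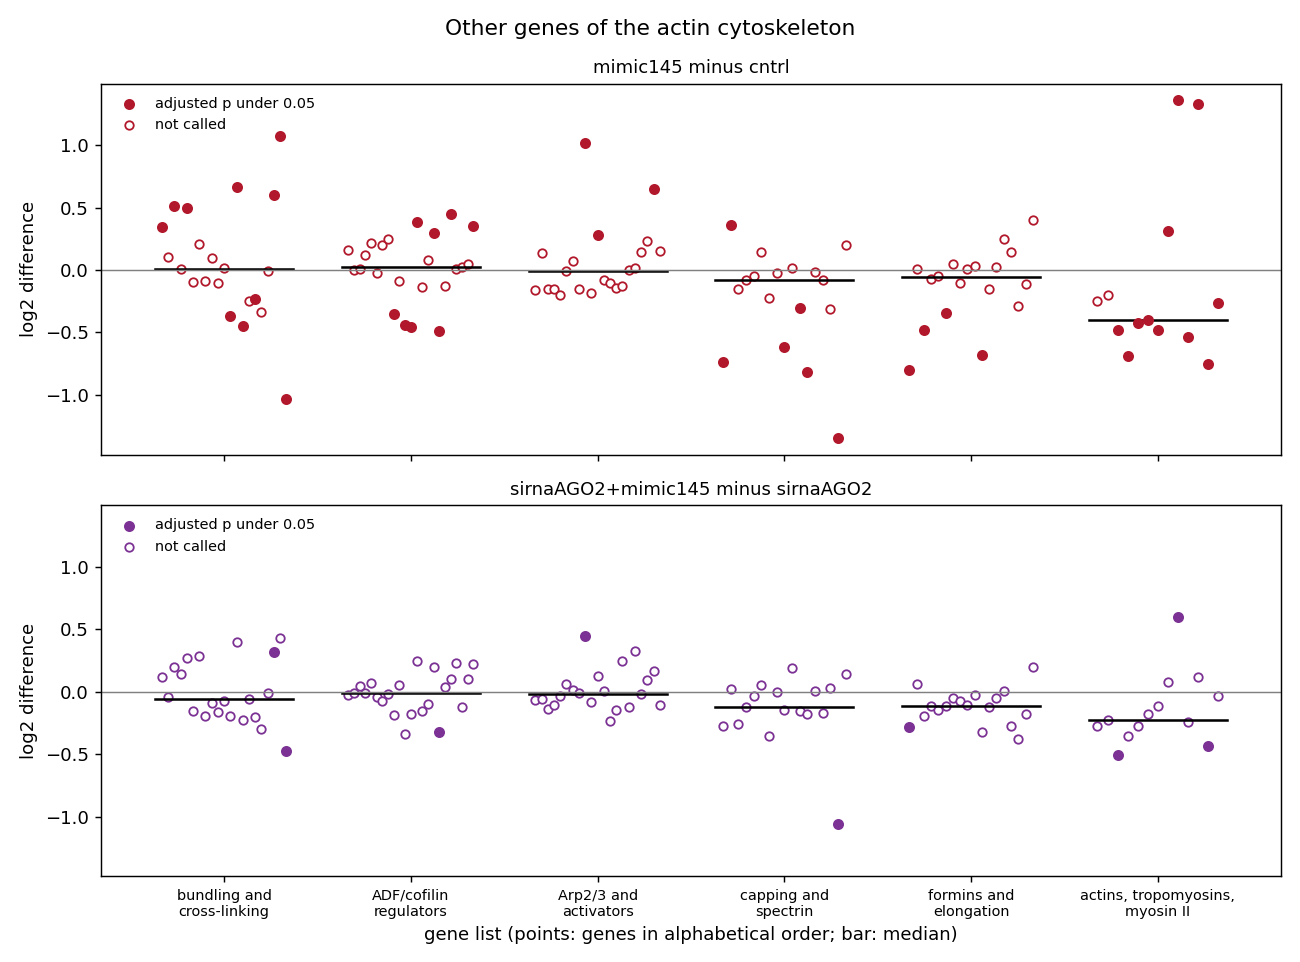
Log2 difference with the mimic for the listed genes in 6 functional lists, in control cells (upper panel) and Ago2-silenced cells (lower panel); filled points passed at an adjusted p under 0.05 and bars are list medians. The list of actins, tropomyosins and myosin II has the lowest median in both panels, -0.40 and -0.22.

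The list of actins, tropomyosins and myosin II, the filament itself and its motor, held 8 genes that fell and 3 that rose of 13 in control cells, and 2 that fell and 1 that rose in silenced cells. These were 84.6% and 23.1% of the list, against 22.6% and 7.28% of all genes. ACTG1, cytoplasmic gamma-actin, fell by 0.48 in control cells and by 0.51 in silenced cells (limma adjusted p = 0.0138 and 0.0334). TPM3, a tropomyosin that coats filaments, fell by 0.75 and 0.43 (adjusted p = 0.000626 and 0.0263, limma). The calls in silenced cells were kept in 5 of 13 alternatives for ACTG1 and in 6 of 13 for TPM3. MYL9, the regulatory light chain of myosin II, rose by 1.36 and 0.60 (adjusted p = 3.22e-05 and 0.00587, limma), with a difference between the arms of -0.76 (limma adjusted p = 0.0511), which passed with normexp, with the authors' table and with only probes above background on every array.

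Of 17 measured capping and spectrin genes, which share the adducins' role, 5 fell and 1 rose in control cells and 1 fell in silenced cells, 35.3% and 5.88% against 22.6% and 7.28% of all genes. That gene was TMOD3, a tropomodulin that caps the slow-growing end, which fell by 1.34 and 1.06 (limma adjusted p = 9.34e-05 and 0.00180). Of 21 genes listed under bundling and cross-linking, 4 fell and 6 rose in control cells. In silenced cells TAGLN2, transgelin-2, fell by 0.48 and RDX, radixin, rose by 0.32 (limma adjusted p = 0.0321 and 0.0366). Their differences in control cells were -1.03 and 0.60, and the list's shares were 47.6% and 9.52%, against 22.6% and 7.28% of all genes. Of 23 ADF/cofilin regulators, 4 fell and 4 rose in control cells, 34.8% against 22.6% of all genes. In silenced cells 1 fell, SSH2, a phosphatase that activates cofilin, by 0.32 after 0.49 in control cells (limma adjusted p = 0.0417 and 0.00241). This was 4.35% of the list against 7.28% of all genes, and the call in silenced cells was kept in 3 of 13 alternatives.

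Of 21 genes of the Arp2/3 complex and its activators, 0 fell and 3 rose in control cells, 14.3% against 22.6% of all genes, and 1 rose in silenced cells, 4.76% against 7.28%. ARPC4, a subunit of the complex, rose by 1.02 in control cells and by 0.45 in silenced cells (limma adjusted p = 9.34e-05 and 0.0154). Of 18 formins and elongation factors 4 fell in control cells, 22.2% against 22.6% of all genes, among them the formin DAAM1, by 0.80 (limma adjusted p = 0.000209). DAAM1 also fell by 0.28 in silenced cells (limma adjusted p = 0.0468), and by 0.46 after silencing alone (limma adjusted p = 0.0181), a call that was lost when any 1 replicate was left out. DAAM1 was the 1 gene of the list called in silenced cells, 5.56% against 7.28% of all genes, and that call was kept in 2 of 13 alternatives.

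Over the 12 arrays, the genes whose signal was most like that of FSCN1 among genes with at least 3 kept probes were DTD1 (Pearson r = 0.987), SWAP70 (0.985) and APH1A (0.985). For SWAP70 they were DTD1 (0.993), FSCN1 (0.985) and TMEM9B (0.983), and for GMFB SLC22A5 (0.981), PALS1 (0.978) and TMOD3 (0.978). For ADD3 they were KAT2B (0.989), GALNT1 (0.987) and ITSN1 (0.984), genes that were lower by 0.71 to 0.97 in control cells and by 0.29 to 0.35 in silenced cells. The 12 arrays fall into the 4 groups, so these correlations describe mainly the pattern of the group means.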

How the data were processed

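RNA was labeled with a single dye and read with Feature Extraction 10.7.3.1, per the file headers. The authors deposited scanner files with each spot's processed signal, which is an intensity after background correction and has no scaling between arrays, and a table of normalized log2 values, which served as an alternative. Here control spots and 304 to 462 outlier spots per array were left out. Signals were floored at 1 (no spot was lower), quantile normalized over 12 arrays, log2 transformed and averaged over the spots of a probe. Probes were named through their RefSeq accession.

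Groups were compared with limma 3.58.1 in R 4.3.3, fitting 4 groups plus a block for the replicate, two-sided, with Benjamini-Hochberg adjustment over 18253 genes at 0.05 (probe tests over 153960 kept probes). Replicates were paired because the titles number them alike and the methods use a paired test. Arrays with the same number deviated together from their group means (r = 0.148 to 0.576 over 18 pairs, -0.497 to 0.201 otherwise). The fit was also run on simulated data with independent noise on each array. These had no replicate effect, so they did not test the replicate block and nothing is read from them. Plots used Python 3.11.15, matplotlib 3.10.9 and pandas 2.3.3.

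The members, gene lists and tests were chosen with earlier results of these data known. The genes named are the members, their other paralogs, AGO2, of each actin list up to 2 genes per direction called in Ago2-silenced cells with at least 3 kept probes, and the 3 most correlated genes; other genes are said to be chosen after their values were seen. Alternatives were other scalings, background corrections, filters and probe summaries, the authors' table, no block, fewer arrays, the methods' t-test, the slide as a random block and leaving out each replicate. A marker gene and 1 actin list, counted only in the totals over all actin lists, are not reported here. Genome sequences, 3′ UTRs and protein sequences were not used here.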

Additional observations from a re-analysis of the deposited data

How the results depend on the processing

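In Ago2-silenced cells, FSCN1, GMFB, ADD3 and SWAP70 were lower under every alternative that gave a value, with log2 differences from -1.66 to -0.93, -1.41 to -1.08, -0.52 to -0.30 and -1.38 to -1.02. The count of 4 called lower went to 0 with only the arrays compared (4 at an unadjusted p under 0.05) and to 0 by the methods' paired t-test after adjustment (3 before it), and to 0 to 3 without 1 replicate. It was 3 with the median over probes, 3 without the replicate block (in both ADD3 was lost) and 3 with only probes above background on all 12 arrays, where no FSCN1 probe was left. With that filter 2 members, ADD2 and CFL2, were called higher. The cause was not tested.

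Paralogs called higher in control cells went from 1 to 2 with normexp, the authors' table, that filter and the median over probes, and to 0 by the adjusted t-test. The t-test at p of at most 0.05 called 1 lower for silencing and 1 lower for the difference of the arms. The median over the 4 chosen genes in control cells, taken in each replicate pair and averaged, went from -1.65 to -1.19 with normexp. Slide as a random block, run for silencing, called 0 paralogs and 7 actin genes as before, and 579 instead of 471 of all genes.

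Of the actin genes, the 27 lower and 18 higher in control cells became 16 and 9 without the replicate block, 15 and 8 with only the arrays compared, 0 and 0 by the adjusted t-test, and 10 to 19 and 7 to 10 without 1 replicate. The 6 lower in silenced cells became 12 with normexp and by the unadjusted t-test, 1 without the replicate block, 0 with only the arrays compared and by the adjusted t-test, and 0 to 1 without 1 replicate. The 3 higher became 10 with 75th percentile scaling and by the unadjusted t-test, 8 with the filter on all 12 arrays, 7 with normexp and with the median over probes, 6 with the authors' table, 0 without the block, with only the arrays compared and by the adjusted t-test, and 0 to 2 without 1 replicate.

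Signs turned in values that were not called. In silenced cells DEF6 was 0.078 with 75th percentile scaling and 0.21 with the filter on all 12 arrays. Without 1 replicate, ADD1 ran from -0.079 to 0.0012 and CFL1 from -0.090 to 0.083. In control cells GMFG was 0.0085 with 75th percentile scaling and 0.051 without a filter, and DEF6 0.032 with the filter on all 12 arrays. After silencing alone GMFG was 0.0018 with normexp and 0.093 without a filter, and CFL2 0.039 with the filter on all 12 arrays. Without 1 replicate, GMFG ran from -0.022 to 0.014 and ADD2 from -0.12 to 0.052. The difference of the arms for ACTG1 was 0.085 with the authors' table and 0.23 with the median over probes. Without 1 replicate it ran from -0.12 to 0.10, and that of ADD2 from -0.019 to 0.20. The number of arrays limits the precision, and for FSCN1 with the mimic so does signal near background.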

Other observations

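Other genes of the actin lists, chosen here after their values were seen, were called in control cells. There 27 of the 124 measured genes fell and 18 rose, 36.3% against 22.6% of all genes. More of the genes named here fell than rose, so they do not show the balance of the lists. In the contractile group the heavy chains MYH9 and MYH10 of myosin II fell by 0.43 and 0.69, the light chain gene MYL12B by 0.48 and the tropomyosin TPM1 by 0.54, whereas TPM2, another tropomyosin, rose by 1.33 (limma). Around the filament, SPTBN1, a spectrin, fell by 0.82, the cappers CAPG and GSN by 0.73 and 0.62, and the formins FMNL2 and DIAPH1 by 0.68 and 0.48. Among the kinases upstream of cofilin, PAK1, PAK2 and LIMK1 fell by 0.44, 0.46 and 0.36, and TESK1 rose by 0.45. LCP1, a filament bundler of the plastin family, rose by 0.66.

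After silencing alone, 7 of the 124 listed genes were called lower and 0 higher by limma (22 lower and 9 higher at an unadjusted p under 0.05, 14 and 8 by the methods' t-test at p of at most 0.05), 5.65% against 2.58% of all genes. They were CNN2 (-0.68), TPM1 (-0.60), GSN (-0.59), MYH9 (-0.51), DAAM1 (-0.46), MARCKS (-0.42) and CAP1 (-0.34). Of these, TPM1, GSN, MYH9 and DAAM1 were also lower with the mimic in control cells, a comparison that shares the cntrl arrays. None of the 7 calls was left without replicate 1, without replicate 2, without replicate 3, without the replicate block or by the adjusted t-test (0 in each), 3 genes were called with the median over probes and 3 with only the arrays compared, and 11 with normexp and 15 of 123 with only probes above background on all 12 arrays. The sirnaAGO2 and cntrl arrays lay on different slides, so slide and silencing cannot be told apart.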
